A study of Sus scrofa with 14 samples.

Results

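Autophagy delivers cytoplasm and organelles to the lysosome, and mitophagy is its selective form for mitochondria. The results below describe 9 genes of these pathways in the porcine mammary gland, chosen by name as a small panel of the machinery: ULK1, BECN1, ATG5, ATG7, MAP1LC3B, SQSTM1, BNIP3, BNIP3L and NUPR1. All 9 were found by symbol among the 30071 gene identifiers of the count tables, each under 1 identifier, and all 9 were listed in the 14 libraries. The rule that chose them is a list of names and uses no measured value, but the list was drawn up with earlier results of these data known.

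Autophagy begins when the ULK1 kinase complex is activated by nutrient or energy stress and when the lipid kinase complex that contains BECN1 marks the membrane on which the autophagosome forms. ATG7 is the activating enzyme of the conjugation systems that join ATG5 to its partner and attach LC3 proteins such as MAP1LC3B to the growing membrane. SQSTM1 carries ubiquitin-tagged cargo to LC3, BNIP3 and BNIP3L are receptors on the outer mitochondrial membrane that do the same for mitochondria and are known targets of hypoxia signalling, and NUPR1 is a small stress-induced nuclear protein linked to autophagy control. In the mammary gland, autophagy and lysosomal pathways are known for their part in the clearance of the secretory epithelium when milk removal stops.

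The study followed the gland of multiparous sows through 5 stages. These were day 90 of gestation (G90), day 0 and day 20 of lactation (L0 and L20), and 2 and 7 days after natural involution (PI2 and PI7). The sample labels name no transgene or drug. Nuclei were sequenced from 2 glands per stage, which gave 10 gland libraries. Single libraries were made from tissue sections at G90 and PI2, and from cells of milk at L0 (colostrum) and L20. Levels are UMIs per 1000000 (CPM), the number of distinct captured molecules of a gene per 1000000 molecules summed over the nuclei, spots or cells in question. Gland libraries were taken as the replicates, so p-values measure the spread between these samples only, and intervals for single libraries cover counting error only.

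The 10 gland libraries held between 18962138 and 53165191 UMIs, and 126833 nuclei passed the limits of 300 genes or more and of no more than 25% mitochondrial UMIs. Nuclei were placed in a cell class when they held UMIs of at least 2 of its marker genes and of more markers than any other class, which placed 66366 nuclei (52.3%) in the luminal epithelial class, 12488 in fibroblasts, 9853 in endothelium, 4702 in macrophages, 3748 in T and NK cells, 1782 in myoepithelium, 795 in B and plasma cells, 516 in mural cells and 494 in adipocytes, and left 26049 in none. A neutrophil class, used later for milk, took 40 gland nuclei. None of the 9 genes was a marker. The check genes that were not used for the classes were highest in their own class, except ACTA2, which ranked 2 in the myoepithelial class after the mural class. The neutrophil class had no check gene, as CXCR1 was not found among the identifiers. No doublet caller was run, and pairs of gland libraries shared between 52 and 205 cell barcodes.

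Several gland libraries stood nearer to another stage than to their own. Over 10058 genes in luminal nuclei, the Spearman correlation of L20 replicate 1 was 0.905 with PI2 replicate 2, its nearest library, and 0.744 with the other L20 gland. PI2 replicate 1 was nearest to PI7 replicate 2 (0.934, against 0.710 with its own stage) and L20 replicate 2 to PI7 replicate 1 (0.917). The G90 pair (0.875) and the L0 pair (0.961) were each nearest to one another. The stage contrasts were therefore also fitted without L20 replicate 1 and PI2 replicate 2, an alternative chosen after the data were seen, and its values are given where a call changed.

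The promoters shown here are those of the member genes that hold the letters ACGTG, a form of the core of the hypoxia response element. They are shown because BNIP3 and other hypoxia targets are compared between cell classes further on. Other forms of the core, such as GCGTG, were not sought, so windows without ACGTG may still hold a core. Each window runs from 250 bases before to 50 bases after the annotated gene start in Sscrofa11.1 (RefSeq annotation), so it holds promoter and the first transcribed bases. The letters ACGTG were sought on both strands and occurred in 3 of the 9 windows, beside 22.26% of 19559 promoters of the same length. The E-box core CACGTG, which contains ACGTG on both strands, occurred in 2 of the 9, beside 7.915% of all promoters. The windows lie at chr14:140371902-140372201 on the minus strand for BNIP3, at chr14:10318438-10318737 on the plus strand for BNIP3L and at chr1:72520353-72520652 on the minus strand for ATG5. They are printed in the direction of transcription, with the motif in capitals; in BNIP3 it is read on the opposite strand.
BNIP3: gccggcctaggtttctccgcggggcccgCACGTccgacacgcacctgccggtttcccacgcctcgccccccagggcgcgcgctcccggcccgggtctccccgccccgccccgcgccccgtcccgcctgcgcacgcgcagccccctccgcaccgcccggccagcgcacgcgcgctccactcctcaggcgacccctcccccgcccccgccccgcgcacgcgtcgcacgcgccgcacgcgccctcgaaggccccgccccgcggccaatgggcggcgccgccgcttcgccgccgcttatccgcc
BNIP3L: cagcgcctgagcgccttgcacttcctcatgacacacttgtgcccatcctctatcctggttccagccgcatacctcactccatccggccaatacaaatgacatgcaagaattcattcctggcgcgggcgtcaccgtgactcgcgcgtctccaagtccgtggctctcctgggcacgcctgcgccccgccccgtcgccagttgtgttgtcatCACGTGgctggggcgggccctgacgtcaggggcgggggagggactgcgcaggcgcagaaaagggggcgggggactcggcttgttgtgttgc
ATG5: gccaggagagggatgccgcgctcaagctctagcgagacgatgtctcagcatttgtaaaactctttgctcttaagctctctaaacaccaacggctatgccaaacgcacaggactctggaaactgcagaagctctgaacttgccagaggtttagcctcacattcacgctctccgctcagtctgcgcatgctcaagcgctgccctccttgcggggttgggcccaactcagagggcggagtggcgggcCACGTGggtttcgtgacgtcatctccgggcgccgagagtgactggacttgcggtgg
The BNIP3 window carried 1 match and no E-box, while the BNIP3L and ATG5 windows each carried 1 E-box, which counts as a match on both strands. A match describes the letters only; binding of any factor was not measured.

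Across the 5 stages, NUPR1 and SQSTM1 had the largest differences between G90 and L0 in luminal nuclei. ULK1, NUPR1, SQSTM1, BNIP3L and ATG7 differed more between the 2 glands of L20 and of PI2 than between the means of those stages. With 2 glands a stage, none of the 9 genes was called in any of the 5 stage contrasts, a call being an edgeR quasi-likelihood Benjamini-Hochberg adjusted p under 0.05 over all genes tested and an absolute log2 fold change over 1. Almost nothing else was called: 0% of 22695 genes in any contrast of all nuclei, and in luminal nuclei 0.00508% of 19692 genes between L0 and G90 and 0% in the other contrasts. Before adjustment, 1652 genes of all nuclei and 2303 of luminal nuclei had a p under 0.05 between L0 and G90. DESeq2 called 1.73% of genes in all nuclei and 4.49% in luminal nuclei for that contrast. For the later contrasts, in which it called no member, DESeq2 called 5.1%, 0.0749% and 0.0573% of genes in all nuclei (L20 against L0, PI2 against L20 and PI7 against PI2), and 4.72% (L20 against L0), 0.0406% (PI2 against L20) and 2.55% (involution against lactation) in luminal nuclei. The levels of each gene therefore come first, as measured in each gland. The edgeR fold changes use library sizes rescaled by TMM, a normalization that the CPM do not use, so the 2 can differ.

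NUPR1, the stress-induced nuclear protein, was at 29.0 and 119 CPM in the luminal nuclei of the 2 G90 glands and at 1034 and 1072 CPM at L0. The L20 glands were at 565 and 56.0 CPM, the PI2 glands at 86.0 and 698 CPM and the PI7 glands at 58.1 and 95.7 CPM. Both L0 glands were above every other gland, while L20 and PI2 each had 1 gland above 500 CPM and 1 below 100 CPM, so these 2 stages overlapped. The log2 fold change of L0 against G90 was 4.06 ± 1.34 (SE), with an edgeR adjusted p of 0.255. DESeq2 called it (adjusted p 0.00615), as did the edgeR fits restricted to the 2 stages compared (0.0245), with no filter on low counts (0.0325) and without L20 replicate 1 and PI2 replicate 2 (0.0299), a fit that called 3.04% of genes in luminal nuclei for that contrast and 0.367% between L20 and L0, where no member was called. Over its alternatives in luminal nuclei the log2 fold change ranged from 3.29 without G90 replicate 1 to 5.77 without G90 replicate 2.

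NUPR1 was also highest at L0 in fibroblasts, and high there in endothelium. In fibroblasts it was at 58.8 and 104 CPM (G90), 776 and 631 CPM (L0), 609 and 126 CPM (L20), 242 and 327 CPM (PI2), and 103 and 221 CPM (PI7). In endothelial nuclei it was at 45.8 and 108 CPM (G90), 399 and 330 CPM (L0), 255 and 77.8 CPM (L20), 56.7 and 414 CPM (PI2), and 59.0 and 79.6 CPM (PI7). LALBA, which encodes the milk protein alpha-lactalbumin and is made by luminal cells, moved with it: it was at 660 and 535 CPM in luminal nuclei at L0, 144 CPM in L20 replicate 1, 91.6 CPM in PI2 replicate 2, 62.7 CPM in G90 replicate 2 and at or below 3.25 CPM in the other 5 glands. In fibroblasts, which do not make milk protein, LALBA was at 986 and 210 CPM at L0, 111 CPM in L20 replicate 1 and 137 CPM in PI2 replicate 2. The other 6 glands had fibroblast LALBA between 0 and 49.6 CPM. The 4 glands highest in NUPR1 were the 4 highest in LALBA in luminal nuclei, in fibroblasts and in endothelium. Below them, G90 replicate 2 was next in both genes in luminal nuclei. In fibroblasts the genes did not follow one another below those 4 glands. There PI2 replicate 1 and PI7 replicate 2 had no LALBA UMI and NUPR1 at 242 and 221 CPM. G90 replicate 2 had LALBA at 49.6 CPM and NUPR1 lower, at 104 CPM. LALBA is also listed below among the 3 genes most like NUPR1 over class sums of these glands, so their match is no independent check. CSN2, a milk casein gene, was at 2242 and 757 CPM in fibroblasts at L0 and at 456 CPM in G90 replicate 2. It was lower in PI2 replicate 2 (199 CPM) and L20 replicate 1 (105 CPM), so it did not match NUPR1 in the same way. The part of free epithelial RNA in the NUPR1 levels was not tested.

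SQSTM1, the ubiquitin-binding cargo receptor, was at 102 and 131 CPM in luminal nuclei at G90 and at 315 and 341 CPM at L0. The L20 glands were at 291 and 179 CPM, the PI2 glands at 239 and 430 CPM and the PI7 glands at 276 and 303 CPM. The 2 G90 glands were the lowest of the 10. L0 against G90 gave a log2 fold change of 1.82 ± 0.53 (SE), with an edgeR adjusted p of 0.196. DESeq2 (adjusted p 0.0353) and the edgeR fits on the 2 stages alone (0.0375) and without L20 replicate 1 and PI2 replicate 2 (0.0455) called it, and it ranged from 1.48 without G90 replicate 1 to 2.27 without G90 replicate 2.

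The mitophagy receptors had different orders. BNIP3 was at 14.3 and 14.9 CPM in luminal nuclei (G90), 17.3 and 10.8 CPM (L0), 31.4 and 17.6 CPM (L20), 34.4 and 36.5 CPM (PI2), and 14.3 and 34.8 CPM (PI7). BNIP3L was at 37.8 and 24.5 CPM (G90), 73.8 and 49.9 CPM (L0), 23.1 and 84.9 CPM (L20), 94.5 and 35.5 CPM (PI2), and 85.6 and 79.2 CPM (PI7). The 2 PI2 glands and PI7 replicate 2 were the highest for BNIP3, whereas BNIP3L was lowest in L20 replicate 1, with PI2 replicate 2 also below both L0 glands. PI2 against L20 gave a log2 fold change of 0.59 ± 0.61 for BNIP3 and 0.48 ± 0.55 for BNIP3L, with an edgeR adjusted p of 0.921 for both. L0 against G90 gave 1.38 ± 0.55 for BNIP3L (adjusted p 0.36).

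Of the conjugation genes, MAP1LC3B, which encodes the LC3 protein placed on autophagosome membranes, was at 33.5 and 30.1 CPM in luminal nuclei at G90 and between 45.8 and 67.3 CPM in the 8 later glands. ATG5, the conjugation partner that helps attach LC3, was at 89.1 and 56.0 CPM (G90), 109 and 111 CPM (L0), 72.9 and 167 CPM (L20), 66.6 and 53.0 CPM (PI2), and 101 and 70.5 CPM (PI7). ATG7, the activating enzyme, was at 174 and 135 CPM (G90), 144 and 163 CPM (L0), 136 and 261 CPM (L20), 201 and 115 CPM (PI2), and 206 and 188 CPM (PI7). Both G90 glands were thus the lowest for MAP1LC3B, and L20 replicate 2 was the highest gland for ATG5 and ATG7. L0 against G90 gave log2 fold changes of 1.16 ± 0.42 for MAP1LC3B (edgeR adjusted p 0.307) and 1.0 ± 0.39 for ATG5 (0.337). The mean CPM differed by less than these scaled folds, with ATG5 at 72.5 CPM (G90) and 110 CPM (L0). Involution (PI2 and PI7) against lactation (L0 and L20) gave -0.85 ± 0.27 for ATG5 (0.317), with lactation glands between 72.9 and 167 CPM and involution glands between 53.0 and 101 CPM, which overlapped.

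The initiation genes were led by ULK1, the initiating kinase, which was at 42.4 and 35.2 CPM in luminal nuclei (G90), 56.9 and 37.7 CPM (L0), 240 and 52.4 CPM (L20), 87.0 and 257 CPM (PI2), and 70.4 and 62.0 CPM (PI7). L20 replicate 1 and PI2 replicate 2 stood far above the other 8 glands, the highest of which was at 87.0 CPM. Each of these 2 libraries has the other as its nearest library. PI7 against PI2 gave a log2 fold change of -1.68 ± 0.78 with an edgeR adjusted p of 1. BECN1, of the lipid kinase complex, stayed between 21.5 and 62.4 CPM in the 10 glands, lowest in L0 replicate 2.

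**Figure D1:**
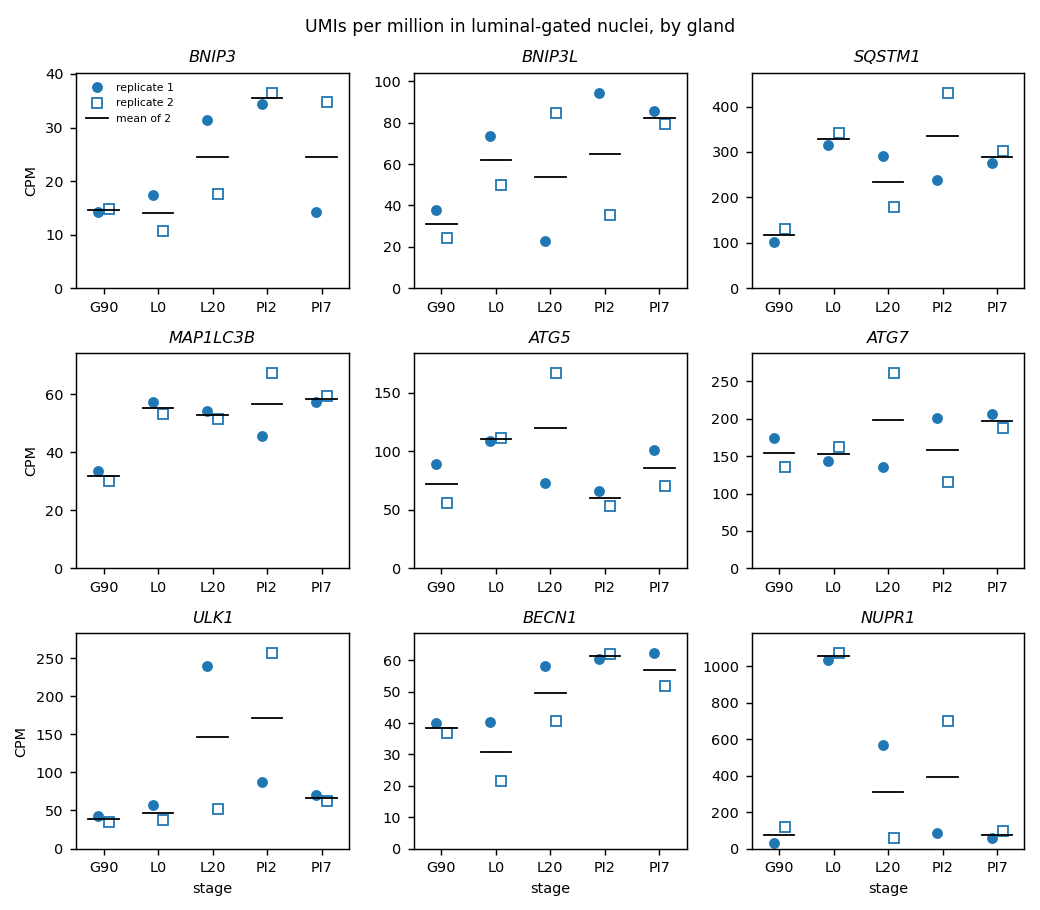
Levels of the 9 genes in luminal nuclei of each gland, in UMIs per 1000000 (vertical axis, from 0) at the 5 stages (horizontal axis); filled circles are replicate 1, open squares replicate 2 and bars the mean of 2. NUPR1 is highest in both L0 glands, at 1034 and 1072 CPM, and ULK1 is high in 1 gland of L20 and 1 of PI2, at 240 and 257 CPM.

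Set side by side without a test, 5 of the 9 genes had both L0 glands above both G90 glands in luminal nuclei (NUPR1, SQSTM1, BNIP3L, MAP1LC3B and ATG5), a state held by 16.4% of 16321 genes. BNIP3 and BECN1 had both L20 glands above both L0 glands (37.2% of genes), and SQSTM1 and NUPR1 had both below (13.5%). BNIP3 and BECN1 had both PI2 glands above both L20 glands (9.76%), and ATG5 had both below (12.9%). ATG5 had both PI7 glands above both PI2 glands (18.9%), and ULK1 had both below (8.66%). No member separated the 4 involution from the 4 lactation glands, beside 3.03% of genes that did so upwards and 1.19% downwards. Without L20 replicate 1 and PI2 replicate 2, L20 is 1 gland, which is assumed to vary like the other stages. The gland removed from L20 is the one with high NUPR1 (541 CPM in all nuclei, against 94.0 CPM in the gland kept), and NUPR1 was then called between L20 and L0 in all nuclei, at a log2 fold change of -4.19 (edgeR adjusted p 0.0473; 2.84% of 23975 genes called). The fold follows which L20 gland was removed: without L20 replicate 1 alone the value was -4.19 (0.203), and without L20 replicate 2 alone -1.15 (0.829). The call appeared when PI2 replicate 2 was left out together with L20 replicate 1.

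The stage effect was also compared between cell classes, by the interaction of involution against lactation with luminal against fibroblast nuclei. None of the 9 genes was called, nor was any of 19936 genes (0%), with 973 genes at an unadjusted p under 0.05. The largest member differences were 0.83 ± 0.41 for BNIP3 and -0.67 ± 0.34 for ATG5 (log2, luminal minus fibroblast), each with an edgeR adjusted p of 1. Within fibroblasts alone, no member and none of 13658 genes (0%) was called in any stage contrast; 772 genes had an unadjusted p under 0.05 between L0 and G90.

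The wider machinery was followed in 8 lists of other autophagy genes: initiation, nucleation, conjugation, the ATG8 family, cargo receptors, mitophagy, fusion with the lysosome, and regulators. Of their 72 genes, 67 were tested by stage, and none was called in any contrast of all or of luminal nuclei. Between L0 and G90, 47 of the 67 had a positive log2 fold change in all nuclei, with a median of 0.33 beside -0.17 over all genes, and 47 in luminal nuclei, with a median of 0.28 beside -0.08. The median was -0.12 between L20 and L0 in all nuclei (all genes 0.24) and -0.33 between PI7 and PI2 (all genes 0.02), where 13 of 67 were positive. None of 13 tested hypoxia targets and none of 12 tested genes of the integrated stress response was called by stage either.

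Against the mean of the other classes, with adipocytes left out, the differences of the 9 genes were small. Single classes could lie further apart: pooled over glands, ATG7 was at 476 CPM in macrophages and 161 CPM in luminal nuclei. UMIs were summed per class and gland where at least 20 nuclei allowed it, which gave 74 sums in 8 classes, and each class was compared with the mean of the others with the sow as a block. No member was called in any class, beside 24.9% of 12165 genes in luminal nuclei, 14.4% in myoepithelium, 10.6% in mural cells, 11.1% in fibroblasts, 13.8% in endothelium, 18.8% in macrophages, 15.4% in T and NK cells and 10.4% in B and plasma cells. All member differences with an adjusted p under 0.05 were under 1 on the log2 scale, that is under a 2-fold difference.

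The macrophage class had the largest of these. ATG7 was higher there by 0.93 ± 0.11 (log2, SE; edgeR adjusted p 8.48e-11), in 10 of 10 glands, with a median of 479 CPM and a range of 203 to 604 CPM beside a median of 168 CPM in luminal nuclei. It passed the fold limit without G90 replicate 2 or without L0 replicate 1. NUPR1 was lower in macrophages by 0.74 ± 0.22 (log2, SE; adjusted p 0.005), in 9 of 10 glands, with a median of 89.9 CPM; without the sow block its adjusted p was 0.474.

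Among the other classes, ULK1 was higher in endothelium by 0.65 ± 0.16 (log2; edgeR adjusted p 6.58e-04), in 10 of 10 glands, and MAP1LC3B by 0.50 ± 0.15 (0.00485), in 7 of 10 glands. In luminal nuclei SQSTM1 was higher by 0.54 ± 0.12 (1.28e-04), in 8 of 10 glands, and NUPR1 by 0.67 ± 0.19 (0.00154), in 6 of 10 glands. These 2 luminal differences depend on the scaling: with RLE size factors, which moved the median of all genes in that contrast from 0.12 to -0.12, they were 0.25 (0.0667) and 0.35 (0.101). The scaling also moved the split of all genes called in luminal nuclei, from 1120 higher and 1905 lower to 742 higher and 2374 lower. Fibroblasts had NUPR1 at 0.85 ± 0.19 (1.64e-04), above the other classes in 9 of 10 glands, and ATG5 at -0.53 ± 0.13 (0.00108), below them in 10 of 10. ATG5 was higher in B and plasma cells by 0.76 ± 0.16 (2.60e-04), in 9 of 9 glands, and in T and NK cells by 0.45 ± 0.14 (0.00583), in 8 of 10 glands, where BNIP3 was at -0.65 ± 0.22 (0.0132), below the other classes in 8 of 10. By the adjusted p alone, ULK1 was also higher in luminal nuclei (0.35 ± 0.16, 0.0491; 0.09 and 0.655 with RLE size factors) and ATG7 lower (-0.31 ± 0.12, 0.0185), below the other classes in 10 of 10 glands, which makes 4 members, beside 60% of all genes. In endothelium BNIP3L (0.43 ± 0.15, 0.0213) and ATG7 (0.32 ± 0.11, 0.0234) were higher and ATG5 lower (-0.34 ± 0.13, 0.036). In T and NK cells BNIP3L (-0.52 ± 0.19, 0.025) and SQSTM1 (-0.46 ± 0.14, 0.00808) were lower, each in 9 of 10 glands. Myoepithelium had BECN1 higher (0.53 ± 0.15, 0.00533) and ATG7 lower (-0.61 ± 0.13, 1.66e-04), and fibroblasts had BNIP3 higher (0.43 ± 0.16, 0.0372). That BNIP3 difference missed the threshold without L20 replicate 1 (0.39, adjusted p 0.0879), without L20 replicate 2 (0.43, 0.0545) and without the sow block (0.48, 0.219). With adipocytes as a further class, in sums of at least 5 nuclei, it was 0.03 (0.945). The mean of the other classes then includes adipocytes, in which BNIP3 was called higher, so this value is not on the same reference.

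**Figure D2:**
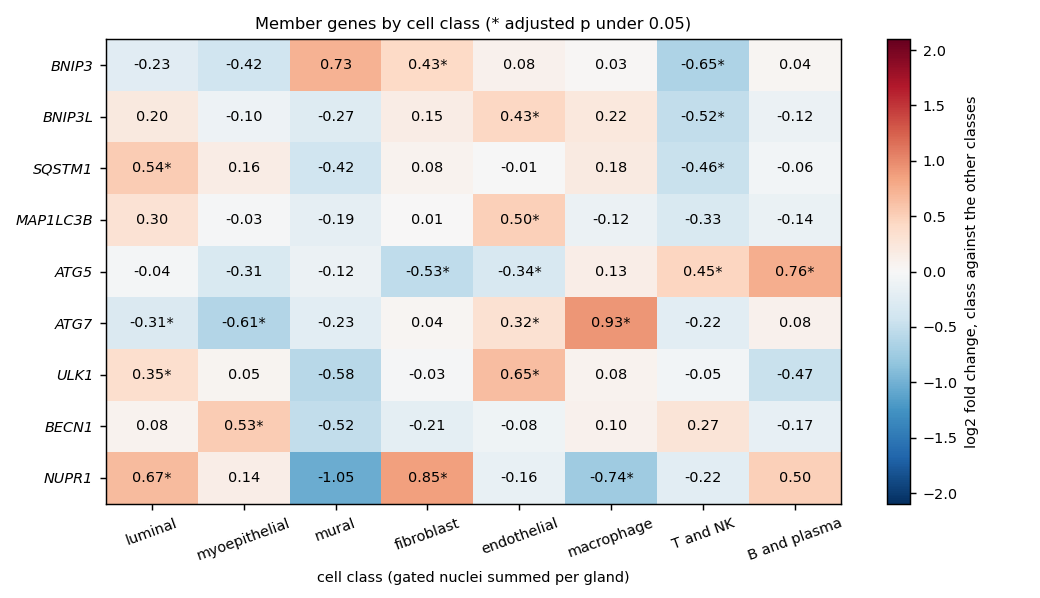
Log2 fold change of each of the 9 genes (rows) in each of 8 cell classes against the mean of the other classes (columns), from UMIs summed per class and gland; red is higher, blue is lower and an asterisk marks an edgeR adjusted p under 0.05. The largest starred value is ATG7 in macrophages, at 0.93, and no starred value reaches 1.

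Among the other autophagy genes, some passed both limits between classes. Of 65 list genes tested, macrophages had 7 higher and 4 lower, beside 18.8% of all genes called. Among them, the LC3-processing protease ATG4C (2.38 ± 0.14, log2 and SE), DAPK1 (1.62 ± 0.16), MITF (1.6 ± 0.16), the cargo scaffold WDFY3 (1.54 ± 0.11), DEPTOR (1.39 ± 0.14) and ATG16L2 (1.25 ± 0.21) were higher, and PRKAA2 (-1.42 ± 0.24), GABARAPL1 (-1.15 ± 0.22) and MAP1LC3A (-1.0 ± 0.22) were lower. MITF is a transcription factor that drives lysosomal and autophagy genes. T and NK cells, with 15.4% of all genes called, had 2 higher, the endoplasmic reticulum receptor RETREG1 (1.72 ± 0.18) and the mitophagy receptor FUNDC1 (1.54 ± 0.21), and 4 lower, WDFY3 (-1.98 ± 0.15), MITF (-1.6 ± 0.22), TP53INP2 (-1.42 ± 0.48) and MAP1LC3A (-1.28 ± 0.25).

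Luminal nuclei had 5 of 65 higher and none lower, beside 24.9% of all genes called: PRKAA2, a catalytic subunit of the energy sensor AMPK (1.75 ± 0.15), the cargo receptors TAX1BP1 (1.2 ± 0.09) and NBR1 (1.04 ± 0.10), the lipid transfer protein ATG2B (1.14 ± 0.11) and AMBRA1 (1.02 ± 0.11). Of these 5, only PRKAA2 kept a log2 fold change over 1 with RLE size factors (1.52), the others lying between 0.73 and 0.93. Endothelium (13.8% of all genes called) had 4 higher (DAPK1 1.75 ± 0.15, GABARAPL1 1.12 ± 0.17, TOLLIP 1.03 ± 0.18 and FOXO1 1.03 ± 0.15) and none lower. Mural cells (10.6%) had 2 higher, TP53INP2 (2.98 ± 0.50) and PRKAA2 (1.17 ± 0.31), and 3 lower, FUNDC1 (-2.28 ± 0.60), RETREG1 (-1.83 ± 0.40) and FOXO1 (-1.13 ± 0.30). B and plasma cells (10.4%) had 1 higher (WIPI1) and 3 lower, fibroblasts (11.1%) 1 higher (MITF) and myoepithelium (14.4%) 1 lower (DAPK1). The hypoxia list had 3 of 13 higher and 2 lower in luminal nuclei, with VEGFA at 1.70 ± 0.22 and EGLN3 at -2.02 ± 0.33, and 3 higher in macrophages, led by HK2 at 1.83 ± 0.21.

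Adipocytes were too few for these sums in most glands, and stood out for BNIP3. With sums of at least 5 nuclei, an alternative chosen after the data were seen, adipocytes entered from 7 glands, and BNIP3 was called higher in them by 3.21 ± 0.23 (log2, SE; edgeR adjusted p 1.73e-22). In that comparison 22.6% of 11036 genes were called and 7.29% were called higher. The class is small, at 494 of 126833 nuclei, of which 398 came from L20 replicate 2. The G90 glands gave 4 and 6 of them. The study, by its own cell classes, reported a higher share of adipocytes outside lactation than during it, unlike this count. From stained tissue it also reported a larger adipocyte area outside lactation. PPARG, the adipocyte check gene outside the markers, was highest in the adipocyte class.

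BNIP3 was at 641 CPM (95% Poisson interval 603 to 680; 1083 UMIs) in the adipocytes of L20 replicate 2. The other glands had few nuclei: 354 CPM in PI2 replicate 1 (33 UMIs, 25 nuclei), 529 CPM in PI7 replicate 2 (11 UMIs, 10 nuclei), 433 CPM in PI2 replicate 2 (7 UMIs, 9 nuclei) and 397 CPM in L20 replicate 1 (8 UMIs, 14 nuclei). PI7 replicate 1 was at 32.7 CPM (2 UMIs, 23 nuclei), and G90 replicate 2 had no BNIP3 UMI in 6 nuclei, which by a limit of 3 counts allows up to 155 CPM (exact interval 0 to 190.1 CPM). The remaining 8 classes lay between 17.8 and 46.4 CPM when pooled over glands. The level was above the mean of the other classes of the same gland in 6 of 7 glands. The interval of PI7 replicate 1 (3.96 to 118 CPM) spans those pooled levels, and G90 replicate 2 was too shallow to tell.

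Most of this rests on 1 gland, so it was fitted again without it. Without L20 replicate 2 the BNIP3 difference was 2.57 ± 0.29 (edgeR adjusted p 1.86e-11), and ULK1 and BECN1 were then called lower on very few counts. The share of all genes called in that fit is not given here. In the 6 glands left, no adipocyte sum held more than 4 ULK1 UMIs or 2 BECN1 UMIs. BECN1 had none in 4 of them, whose limits of 3 counts (144 to 186 CPM) lie above the pooled level of the other 8 classes (38.4 to 72.5 CPM), so these 2 calls show no level that can be read. ATG7 was higher in adipocytes in 7 of 7 glands by 0.76 ± 0.18 (4.41e-04), and by 0.84 ± 0.21 (0.00176) without that gland, in each case under the fold limit. SQSTM1 was at 0.58 ± 0.23 with it and 0.08 ± 0.28 without it. BNIP3L, the close relative of BNIP3, was at 0.36 ± 0.28 (edgeR adjusted p 0.346) with that gland and at -0.87 ± 0.45 (0.17) without it, and 2 of 7 glands lay above the other classes. The adipocyte nuclei of L20 replicate 2 had a median of 3873.5 UMIs beside 1916 for all kept nuclei of that library, and 174 of the 398 remained when nuclei that also held markers of another class were removed. The part of depth and of mixed nuclei in the BNIP3 level was not tested.

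**Figure D3:**
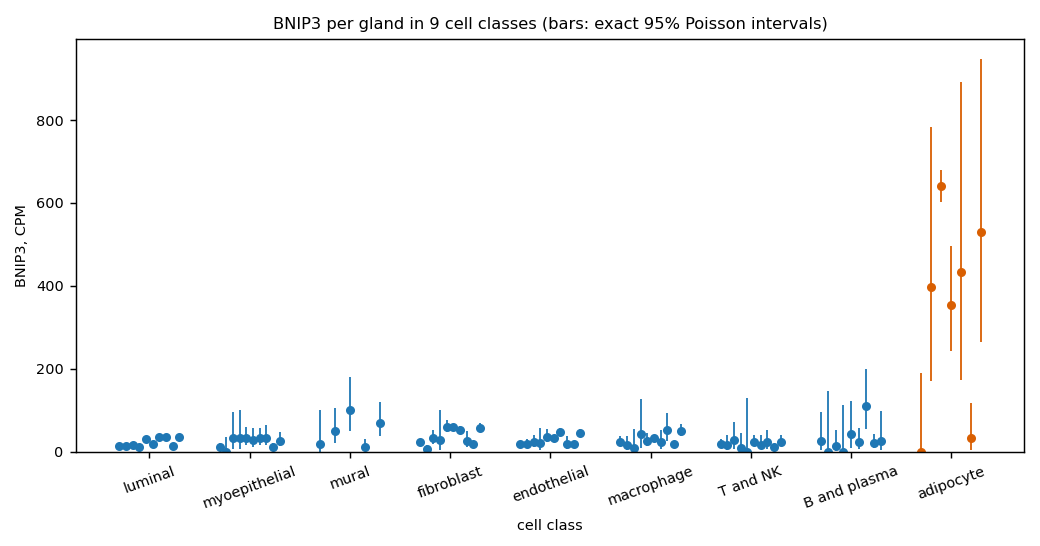
BNIP3 level (vertical axis, UMIs per 1000000, from 0) in each gland for 9 cell classes (horizontal axis), for sums of at least 20 nuclei, or of at least 5 in adipocytes (orange); bars are exact 95% Poisson intervals. Adipocytes of 5 glands lie between 354 and 641 CPM, and PI7 replicate 1 and G90 replicate 2 lie at 32.7 and 0 CPM.

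Adipocytes weighed on the level of the whole gland in that library. They were 2.63% of the kept nuclei of L20 replicate 2 and 4.29% of its UMIs, and held 37.2% of its BNIP3 UMIs (95% exact binomial interval 35.4 to 38.9%). BNIP3 in all nuclei of that gland was at 74.0 CPM, the highest of the 10, and at 48.6 CPM without them. With adipocytes left out of every gland it was still the highest, the next being PI7 replicate 2 at 38.9 CPM. In the other 9 glands adipocytes held at most 3.37% of the BNIP3 UMIs. In a sum over all nuclei, fewer cells of a class and less RNA per cell cannot be told apart.

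Of the other autophagy lists, adipocytes had 7 of 64 tested genes higher and 4 lower, beside 7.29% and 15.3% of all genes. The mitophagy list had 2 of 7 higher, the kinase PINK1 (1.74 ± 0.34, log2 and SE) and the mitochondrial ubiquitin ligase MUL1 (1.07 ± 0.28); without L20 replicate 2 these were 1.91 ± 0.46 (adjusted p 0.0014) and 0.59 ± 0.45 (0.366). PRKAA2 (1.55 ± 0.31), FOXO1 (1.38 ± 0.24), RETREG1 (1.09 ± 0.30), GABARAPL1 (1.05 ± 0.31) and NRBF2 (1.03 ± 0.35) were also higher, and DEPTOR (-1.38 ± 0.29), TECPR1 (-1.26 ± 0.43), DAPK1 (-1.11 ± 0.30) and ATG4C (-1.04 ± 0.38) lower. Without L20 replicate 2, PRKAA2 (1.31), NRBF2 (1.3), DEPTOR (-1.56), TECPR1 (-2.52) and DAPK1 (-1.37) were still called, FOXO1 (0.76), RETREG1 (0.03) and ATG4C (-1.24, adjusted p 0.134) were not, and GABARAPL1 turned to -0.30 ± 0.53. Of 12 hypoxia targets tested, 5 were higher and 3 lower: the glycolytic genes HK2 (2.68 ± 0.30) and PFKFB3 (2.61 ± 0.23), VEGFA (2.51 ± 0.40) and ADM (2.51 ± 0.56) led the first, and CA9 (-3.03 ± 0.71) the latter. Without L20 replicate 2, HK2 (2.88), PFKFB3 (2.27) and VEGFA (2.64) were still called and ADM (1.26, adjusted p 0.427) and CA9 (-2.23, adjusted p 0.109) were not. Of 8 genes tested of the stress response list, 2 were higher, the serine synthesis gene PSAT1 (3.23 ± 0.34) and SESN2 (1.17 ± 0.42), and 2 lower, ATF3 (-1.84 ± 0.61) and SLC7A11 (-1.70 ± 0.59). Without L20 replicate 2 only PSAT1 of these 4 was still called (3.13), with SESN2 at 1.16 (adjusted p 0.176), ATF3 at -2.62 (0.0575) and SLC7A11 at -0.89 (0.484). BNIP3 was thus higher in adipocytes beside some hypoxia targets, while other targets of the same list were lower.

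In tissue sections, which capture RNA over spots that hold several cells, 1 section was available at G90 (4718 spots kept, with at least 500 UMIs) and 1 at PI2 (2188 spots). SQSTM1 was at 324 CPM at PI2 (95% Poisson interval 315 to 332) and at 132 CPM at G90 (129 to 136), a ratio of 2.45. BNIP3 was at 112 CPM (108 to 117) and 60.5 CPM (58.2 to 62.8), a ratio of 1.86, and ULK1 at 53.2 and 29.1 CPM, a ratio of 1.83. ATG7 (24.3 and 15.0 CPM), BECN1 (49.6 and 41.0) and NUPR1 (499 and 421) were also higher at PI2, and ATG5 was lower (6.15 and 10.98). BNIP3L and MAP1LC3B overlapped. So 7 of 9 members had intervals apart, beside 70.8% of 13428 genes, and with 1 section a stage there is no replicate check.

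Spots rich in adipocyte markers were compared with the rest of each section, as the 10% of spots with the highest share of those UMIs. BNIP3 was higher in them in both sections, at 96.9 CPM (79.9 to 116) against 59.4 CPM (57.1 to 61.8) at G90 and at 140 CPM (117 to 166) against 111 CPM (106 to 116) at PI2. At PI2 the intervals overlapped once the top 20% of spots were taken, with BNIP3 at 118 CPM. BNIP3L was higher in the G90 spots (79.0 against 51.0 CPM), while NUPR1 was lower there (274 against 425) and higher at PI2 (611 against 493). Intervals were apart for 3 of 9 members at G90, beside 21% of 12969 genes, and for 2 of 9 at PI2, beside 12.1% of 12024 genes. The adipocyte-marker spots were shallower, with a median of 1792 UMIs against 8889 at G90 and 3297 against 6672 at PI2; the part of depth was not tested.

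Spots rich in luminal markers, chosen in the same way, differed from the rest in other members. SQSTM1 was at 174 against 128 CPM at G90 and at 427 against 312 CPM at PI2. NUPR1 was at 552 against 409 CPM and 648 against 482 CPM, and MAP1LC3B at 115 against 97.2 CPM and 121 against 97.8 CPM. These 3 members were higher in luminal-marker spots in both sections, joined by BNIP3L and BECN1 at G90, beside 22.9% of genes with intervals apart at G90 and 25.6% at PI2. The milk protein gene LALBA did not follow the luminal markers at G90, at 87.5 CPM (78.2 to 97.7) in these spots against 115 CPM (112 to 118) in the rest, and CSN2, a milk casein gene, was at 39.9 against 47.6 CPM with overlapping intervals. BNIP3 overlapped in both, at 58.3 against 60.7 CPM and 105 against 113 CPM.

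In milk, 17571 cells were kept from the L0 library and 14514 from the L20 library. The stage of each is the one its source and time labels give; the title of the L0 milk library carries the letter that marks G90 among the gland libraries, a mismatch that was not resolved. Over all cells NUPR1 was at 2603 CPM at L0 and 564 CPM at L20, and ULK1 at 16.6 and 14.1 CPM. The remaining 7 members were higher at L20: BECN1 by a ratio of 1.57 and BNIP3L by 1.6 the most, and SQSTM1 by 1.07 the least. All 9 had intervals apart, beside 67.6% of 17029 genes. The make-up of the 2 libraries differed, with 2909 luminal and 10872 neutrophil cells at L0 and 1043 and 7567 at L20, so the cells were compared class by class.

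**Figure D4:**
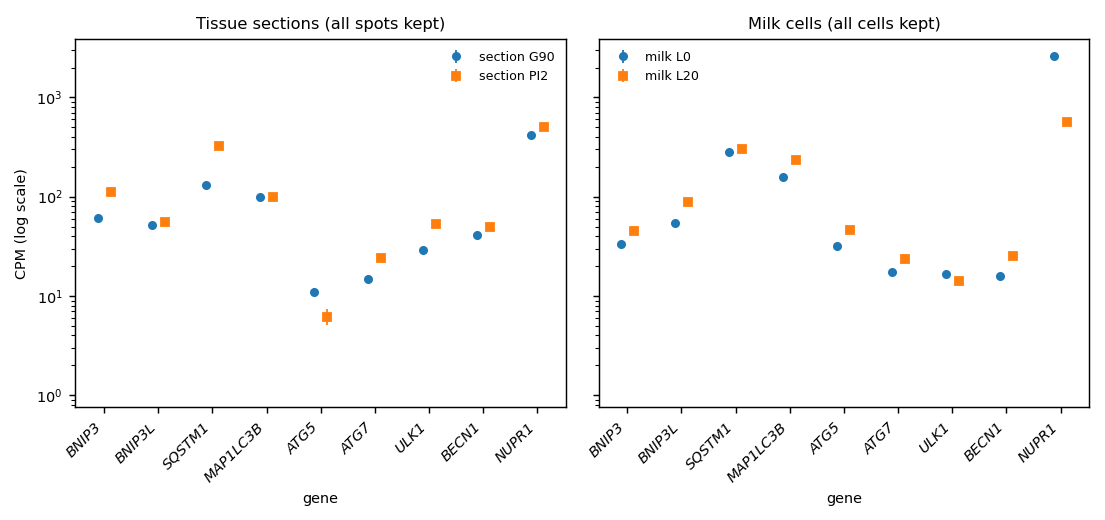
Levels of the 9 genes (horizontal axis) in UMIs per 1000000 on a log scale (vertical axis), over all spots of the G90 and PI2 sections (left) and all cells of the L0 and L20 milk libraries (right); bars are exact 95% Poisson intervals, often smaller than the symbols, and each point is 1 library. SQSTM1 is higher in the PI2 section (324 against 132 CPM), and NUPR1 is lower in L20 milk (564 against 2603 CPM).

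Within luminal milk cells NUPR1 was at 3662 CPM at L0 and 2123 CPM at L20. It was also lower at L20 in neutrophils (128 against 170 CPM), macrophages (54.3 against 120 CPM) and T and NK cells (28.8 against 124 CPM). LALBA was at 973 CPM in the T and NK cells of L0 and 223 CPM in those of L20, and at 795 and 128 CPM in the macrophages, although these cells do not make it. In luminal cells LALBA went the other way, at 29537 CPM at L0 and 38283 CPM at L20. The few B and plasma cells (43 and 38) also differed from the 4 classes compared: NUPR1 was at 370 CPM at L0 (316 to 430) and 602 CPM at L20 (513 to 701), while LALBA was at 1059 and 197 CPM. NUPR1 was thus lower at L20 in 4 classes and higher in B and plasma cells, and it did not follow LALBA in every class. The part of free RNA was not tested.

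The other members had no common direction over milk classes. SQSTM1 was slightly higher at L20 in luminal cells (204 against 185 CPM) and lower in neutrophils (345 against 458), macrophages (284 against 450) and T and NK cells (105 against 171). ULK1 was lower in neutrophils (25.2 against 50.5 CPM) and macrophages (3.52 against 10.2 CPM), and BNIP3 was lower in luminal cells (17.6 against 22.9) and macrophages (53.2 against 83.9). BECN1 was higher in neutrophils (13.9 against 8.71) and macrophages (43.9 against 32.5). In all, 3 members were higher and 3 lower in luminal cells (55.4% of genes had intervals apart), 2 and 4 in neutrophils (51%), 1 and 5 in macrophages (40%), and none and 2 in T and NK cells (15.5%). The luminal cells of L0 had a median of 17584 UMIs and those of L20 2938.

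The level of a gene differed between nuclei and the other assays, and against sections the longest genes had the highest ratios. ATG7 spans 397 kb and ATG5 176 kb, and their median level over the 10 gland libraries was 9.38 and 9.81 times the mean of the 2 sections. NUPR1, the shortest at 1.63 kb, was at 0.242 of the section level, and BNIP3, of 9.83 kb, at 0.307. The other 5 members lay between 0.572 and 1.58. Beside milk cells the ratios were 8.94 for ATG7 and 0.0702 for NUPR1, but the order did not follow length in between: ULK1 (24.4 kb) was at 4.23 and BECN1 (12.3 kb) at 2.27, above ATG5 at 2.15, and MAP1LC3B (21.2 kb) was at 0.291. Nuclei hold unspliced RNA, sections and milk cells come from other samples, and the 9 values are a description. Comparisons above were therefore made within 1 assay.

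**Figure D5:**
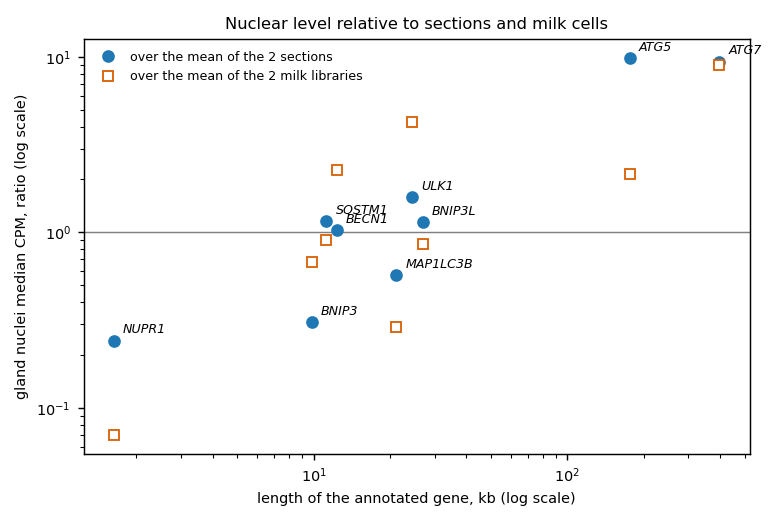
Median level of each gene over the 10 gland nuclei libraries divided by its mean level in the 2 sections (filled circles) or the 2 milk libraries (open squares), on a log scale, against the length of the annotated gene in kb on a log scale; the grey line marks equal levels. The 2 longest genes, ATG5 and ATG7, lie at 9.81 and 9.38 times the sections, and NUPR1, the shortest, lies at 0.242.

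The genes whose level was most like that of each member were listed over the 74 class sums, by Pearson r of log2(CPM + 1) among 10264 genes with a mean of at least 10 CPM. Sums of a gland share its library and depth, so r is a description. For NUPR1 they were HPS5 (0.79), LALBA (0.78) and SLC6A14 (0.68), and for ULK1 FHIP2B (0.85), SPSB3 (0.81) and MYO1C (0.79). For BNIP3 they were RIPOR1 (0.80), YAE1 (0.78) and PHAX (0.74), and for BNIP3L PPIL3 (0.75), NHEJ1 (0.74) and BTBD1 (0.74). ATG7 was most like PRKD3 (0.73), UVRAG (0.71) and LIPA (0.70), and BECN1 like TMCO3 (0.78), MED4 (0.73) and SUPV3L1 (0.70). MAP1LC3B was most like ZNF395 (0.72), PKM (0.72) and RANBP9 (0.72), and SQSTM1 like BMF (0.63), HBP1 (0.60) and C3 (0.59). For ATG5, DOCK8 (0.67) and MAPKAP1 (0.67) were among the nearest. No member was among the 3 nearest of another member.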

How the data were processed

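Nuclei, tissue sections and milk cells were analysed from UMI count matrices that the authors deposited as whole-number counts per gene and barcode, without normalization. The authors made gland and milk counts with CeleScope and section counts with Space Ranger, version 1.2.0 per the labels and 1.3.1 per the file headers, on Sscrofa11.1; Seurat 4.3.0 is named in the submitters' processing notes. Python 3.11.15 (numpy 2.4.6, pandas 2.3.3, scipy 1.17.1, matplotlib 3.10.9) was used for sums and intervals, and R 4.3.3 with edgeR 4.0.16 (TMM, quasi-likelihood test, filter on low counts) for tests; DESeq2 1.42.0 was an alternative. The SE of an edgeR fold change was read back from its p-value, as the fold change over the t quantile of that p-value. Barcodes needed 300 genes and at most 25% mitochondrial UMIs. Counts were summed per gland, and per class and gland. Simulated counts with 200 changed genes were used to check 2 edgeR fits: luminal nuclei at L0 against G90, and macrophages against the other classes. The other fits and steps were not checked in this way. All 9 genes were named, with list genes that passed the test (at most the 4 largest per list and comparison, ties included). The members, markers and lists were chosen with earlier results of these data known. Alternatives covered scaling, filters, gates, blocks and each gland left out. 1 of the 3 genes most like ATG5 is not reported here.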

Additional observations from a re-analysis of the deposited data

How the results depend on the processing

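Counts of called members were 0 in the stage comparisons and in the 8 class comparisons of sums of at least 20 nuclei, and changed as follows. Between L0 and G90, DESeq2 called 1 member higher in all nuclei (1.73% of all genes called) and 2 in luminal nuclei (4.49%), the fit on the 2 stages alone 1 (2.01%) and 2 (5.62%), no filter on low counts 1 in luminal nuclei (1.1%), and leaving out L20 replicate 1 with PI2 replicate 2 called 2 higher in luminal nuclei (3.04%) and 1 lower (NUPR1) between L20 and L0 in all nuclei (2.84%), where L20 is then the 1 gland low in NUPR1 and the spread comes from the other stages. By the adjusted p alone, members higher and lower were 3 and 1 in luminal nuclei (60% of all genes passed), 1 and 1 in myoepithelium (28.8%), 2 and 1 in fibroblasts (28.3%), 4 and 1 in endothelium (36.3%), 1 and 1 in macrophages (40.3%), 1 and 3 in T and NK cells (36.4%), and 1 and 0 in B and plasma cells (20.7%). Without the sow block, 1 member was called higher in luminal nuclei (3447 of 12165 genes called) and 1 lower in mural cells (1143); sums of at least 5 nuclei gave 1 higher (BNIP3) in adipocytes (22.6% of all genes called), 1 lower in mural cells (13.1%) and 1 lower in T and NK cells (15.9%). Leaving out each gland moved the macrophage count of higher members between 0 and 1. In sums of at least 5 nuclei without L20 replicate 2, ULK1 and BECN1 (at most 4 and 2 UMIs in a gland) were lower in adipocytes. GABARAPL1 turned to -0.30 there. BNIP3 in fibroblasts was at -0.016 in that fit and at 0.034 with that gland kept. In both, the mean of the other classes includes adipocytes, in which BNIP3 was called higher. In sums of at least 20 nuclei without L20 replicate 2, where adipocytes are left out, the BNIP3 difference in fibroblasts was 0.43. The shares of all genes called in the class fits that left out a gland are not given here. The cause of the other changes was not tested, nor was the part of the changed class mean in the fibroblast values. In milk, neutrophils had 1 member higher with 500 genes and 10% mitochondrial UMIs as limits (27% of all genes higher with intervals apart) and 1 with at least 3 markers (26.8%), macrophages 0 higher with 3 markers (17.1%), and T and NK cells 1 lower with the stricter limits (7.88% lower) and 1 higher with 3 markers (6.17%). In the PI2 section, 1 member was higher in the top 20% of adipocyte-marker spots (2.8% of all genes).

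No common pairing of the glands by replicate number was seen. Deviations of same-numbered glands correlated between -0.50 and 0.37 over 10 pairs of stages in all nuclei, with 2 over 0.1. In luminal nuclei they correlated between -0.32 and 0.29, with 3 over 0.1. A replicate block called 0 of 9 members in every contrast. By an adjusted p of 0.05 alone, without the fold limit, 567 member fold changes under other settings kept direction and side, 67 lost it, 10 gained it and 1 reversed. Luminal stage and interaction results entered this count only with an unadjusted p under 0.1 at the starting settings, and class results with an adjusted p under 0.05. Of all nuclei only NUPR1 entered, in 2 contrasts. Kept side includes results that missed the limit both times. Members left out, such as BNIP3L in adipocytes, could also change direction. With 2 glands a stage and libraries that lie nearer to other stages, a stage difference that misses the threshold does not show equal levels.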
